A study of Mus musculus with 6 samples.

Results

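The 10 genes described here mark the lining of liver blood vessels. *Stab2*, *Lyve1*, *Clec4g* and *Oit3* are markers of the liver sinusoidal endothelial cell, and *Cd34*, *Plvap* and *Vwf* are markers of capillary-like (capillarized) endothelium. *Stab1*, *Pecam1* and *Kdr* were placed in neither set and are labeled shared in the figures. *Pecam1* and *Kdr* are expressed in both kinds of vessel, and *Stab1* is also expressed in macrophages. The 10 genes were chosen by name as known markers, at a time when earlier results of these data were known. The choice used no measured value as a limit. They make up 10 of the 34745 genes in the deposited table. RNA sequencing had been carried out on 6 liver tumors from mice, 3 from *Prmt3* f/f mice (tumors 7, 66 and 71) and 3 from *Prmt3* LKO mice (tumors 92, 93 and 94), which lack the arginine methyltransferase gene *Prmt3* in hepatocytes. All of the mice were male and carried floxed *Prmt3* alleles. The *Prmt3* f/f group is called WT in the sample labels, and the LKO group carried in addition Cre recombinase under the albumin promoter, which is active in hepatocytes, so that endothelial cells were not the cells targeted. Both groups received the carcinogen diethylnitrosamine (DEN, 25 mg/kg) at 2 weeks of age and repeated carbon tetrachloride (CCl4, 10%, 0.5 ml/kg) from 6 weeks, and tumors were taken at 26 weeks. *Prmt3* itself was at 6.60, 8.49 and 10.2 CPM (counts scaled to a common library size, with TMM correction for composition) in the *Prmt3* f/f tumors and at 2.80, 2.03 and 3.82 CPM in the LKO tumors, so the LKO mean was 34.3% of the *Prmt3* f/f mean.

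Sinusoidal endothelial cells form a fenestrated wall with almost no basement membrane, and they clear waste macromolecules from portal blood through scavenger receptors. In chronic injury and in hepatocellular carcinoma these cells can lose fenestrae and scavenger receptors and take on markers of continuous capillaries, a change called capillarization. The comparison asked whether the balance of the 2 marker sets, and the level of each gene, differed between tumors with and without hepatocyte *Prmt3*.

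Sequencing depth was 18440244 to 27976598 counts per tumor, and a count of 3 corresponded to 0.107 to 0.163 CPM. Albumin took 11% to 16.1% of counts, and the 8 hepatocyte markers checked summed to 136209 to 195771 CPM, so these were hepatocyte-rich tissues in which endothelial RNA was a small part. In bulk tumor RNA, fewer endothelial cells and less RNA per endothelial cell cannot be told apart. The labels do not say whether each tumor came from a different mouse, so p-values measure only the spread between these tumors. *Prmt3* f/f tumor 7 stood apart from the others: on the first principal component it was at -55.6, while the other 5 tumors lay between -22.2 and 25.6. Results are therefore also given without it.

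Of the 10 genes, 0 passed the test. The test was the edgeR quasi-likelihood test across 13892 genes with 2 limits, an adjusted p below 0.05 and a fold change of 2 or more in either direction. It called 0% of all genes tested, so having no call does not set these 10 apart. DESeq2 called 43 lower and 9 higher of all genes, with 0 of the 10 among them. At an unadjusted p below 0.05, 4.37% of all genes were lower and 2.2% were higher in *Prmt3* LKO tumors, against 0 of the 10 in either direction, and the smallest unadjusted p was 0.143, for *Plvap*. In all 10, the range of the LKO tumors overlapped that of the *Prmt3* f/f tumors, while 6.6% of all genes were lower and 5.56% higher in every LKO tumor. Of the 10 log2 fold changes, 5 were below 0 and 5 above, with a median of -0.043 beside 0.00037 over all genes tested. The 95% intervals of the fold changes reached from 0.549 at the lowest, for *Clec4g*, to 1.81 at the highest, for *Vwf*, so a 2-fold change in either direction lay outside all 10 of them.

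**Figure D1:**
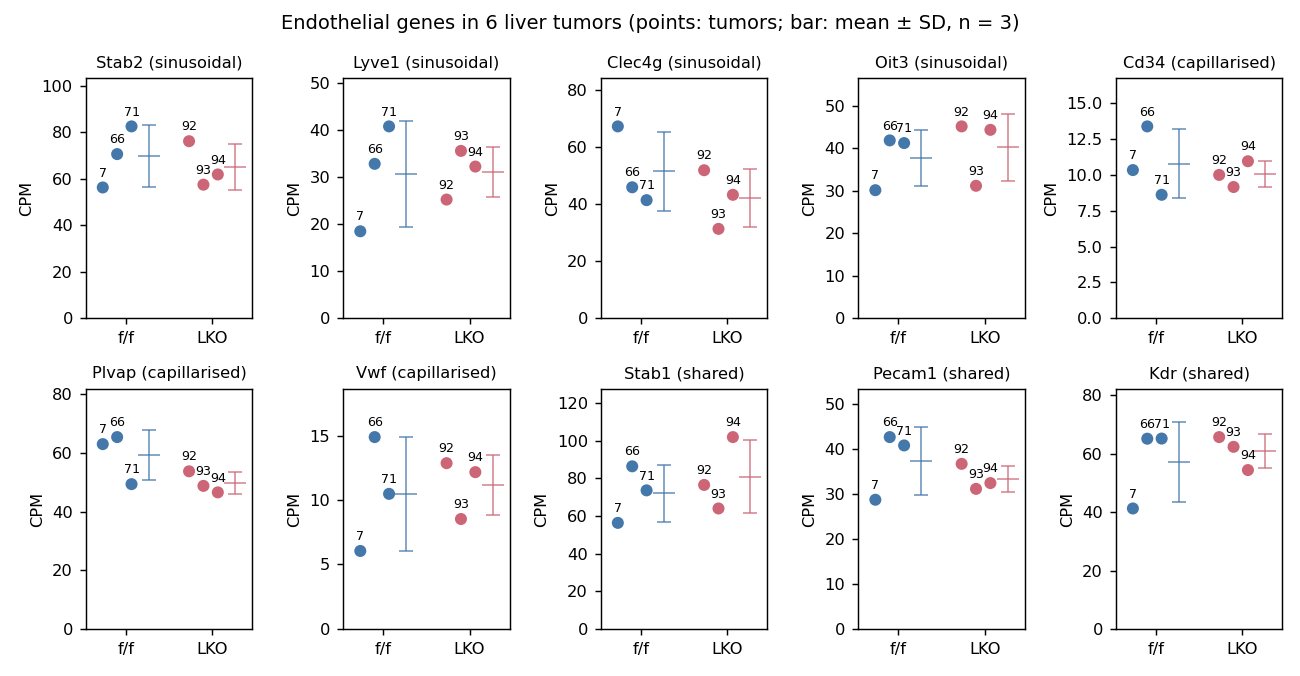
CPM of each of the 10 genes (vertical axes, from 0) in the 3 *Prmt3* f/f tumors and the 3 *Prmt3* LKO tumors. Points are tumors with their numbers, and the bar beside each group is its mean ± SD (n = 3). The 2 groups overlap in all 10 panels, and tumor 7 is the lowest point in 7 of them.

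**Figure D2:**
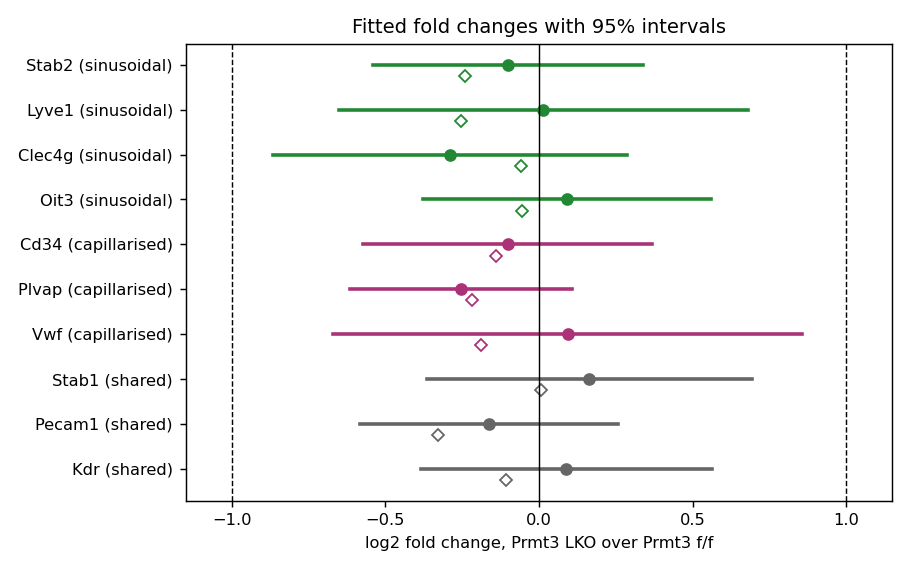
Log2 fold change of *Prmt3* LKO over *Prmt3* f/f tumors with its 95% interval for each gene, from the edgeR fit. All 10 intervals include 0 and stay inside a 2-fold change in either direction.

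The 4 sinusoidal genes varied more between tumors than between groups. Stabilin-2, encoded by *Stab2* (chr10:86841198-87008025, minus strand, all positions on GRCm38), is the hyaluronan scavenger receptor of these cells. It stood at 56.3, 70.6 and 82.6 CPM in *Prmt3* f/f tumors 7, 66 and 71 and at 76.2, 57.5 and 61.9 CPM in LKO tumors 92, 93 and 94. The highest and the lowest tumor were both *Prmt3* f/f tumors, and the log2 fold change was -0.10 (SE 0.19, edgeR adjusted p = 0.975). *Lyve1*, which encodes another hyaluronan receptor (chr7:110850607-110862953, minus strand), was at 18.5, 32.8 and 40.8 CPM in *Prmt3* f/f tumors and at 25.2, 35.5 and 32.2 CPM in LKO tumors. The LKO values lay within the *Prmt3* f/f range, and the log2 fold change was 0.014 (SE 0.29, edgeR adjusted p = 0.998). *Lyve1* is also expressed in lymphatic endothelium and in some macrophages.

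*Clec4g* (LSECtin), a C-type lectin of sinusoidal endothelium (chr8:3707064-3720651, minus strand), differed in direction from the other 3 sinusoidal genes in tumors 7 and 71. Relative to its own mean over the 6 tumors it was above in tumor 7 and below in tumor 71, where the other 3 were below and above. It was at 67.1, 45.8 and 41.3 CPM in *Prmt3* f/f tumors and at 51.8, 31.3 and 43.2 CPM in LKO tumors. Tumor 7 had the highest level and LKO tumor 93 the lowest, and the log2 fold change was -0.29 (SE 0.25, edgeR adjusted p = 0.918). Without tumor 7 it was -0.06 (SE 0.22). *Oit3*, a gene restricted in liver mainly to sinusoidal endothelium, lies at chr10:59422958-59441778, minus strand. It was at 30.1, 41.8 and 41.2 CPM in *Prmt3* f/f tumors and at 45.1, 31.1 and 44.3 CPM in LKO tumors. Tumors 7 and 93 were low and the other 4 lay close together, with a log2 fold change of 0.09 (SE 0.20, edgeR adjusted p = 0.983).

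*Clec4g* and *Stab2* parted most clearly in tumor 7, where *Clec4g* was at 1.55 times and *Stab2* at 0.797 times the median of the other 5 tumors. Their upstream sequences are printed for that reason, from RefSeq on build GRCm38.p6, and a promoter entry was matched for 5 of the 10 genes (*Stab2*, *Clec4g*, *Cd34*, *Stab1* and *Kdr*). Capitals mark AGGAAG, a core recognized by ETS factors, or its reverse complement CTTCCT. The *Clec4g* stretch is chr8:3720652-3720901 and the *Stab2* stretch chr10:87008026-87008192, both read on the minus strand and 5′ to 3′ up to the annotated start, and the *Stab2* stretch was shortened to end before the earlier of its RefSeq and GENCODE starts.
Clec4g: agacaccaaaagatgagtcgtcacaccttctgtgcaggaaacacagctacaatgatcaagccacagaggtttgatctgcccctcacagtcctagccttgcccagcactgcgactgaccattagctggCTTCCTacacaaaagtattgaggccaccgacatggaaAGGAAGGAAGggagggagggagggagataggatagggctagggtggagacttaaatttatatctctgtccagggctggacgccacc
Stab2: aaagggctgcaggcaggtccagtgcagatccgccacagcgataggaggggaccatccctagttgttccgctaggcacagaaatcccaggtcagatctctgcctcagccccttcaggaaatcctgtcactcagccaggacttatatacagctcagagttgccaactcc
The *Clec4g* stretch of 250 bases holds 3 matches, of which 2 overlap, and the shorter printed *Stab2* stretch of 167 bases holds 0. The counts are for unequal lengths, and in the full 250 bases before its RefSeq start *Stab2* holds 1 match. Over the full 250 bases before the RefSeq start, 4 of the 5 genes hold AGGAAG on either strand, which 29.5% of 32851 promoter windows of that length do. The GATA-factor core AGATAA, or TTATCT on the other strand, is in 0 of the 5 and in 9.99% of windows. A match describes letters only and was not tested as a binding site.

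Among the 3 capillarized genes, *Plvap* had the narrowest spread. *Plvap* encodes the protein of fenestral and caveolar diaphragms (chr8:71497754-71511769, minus strand) and stood at 63.1, 65.5 and 49.4 CPM in *Prmt3* f/f tumors and at 53.8, 48.8 and 46.6 CPM in LKO tumors. Tumors 7 and 66 were above the other 4, and the log2 fold change was -0.25 (SE 0.16, edgeR adjusted p = 0.857). *Cd34*, which encodes a sialomucin of capillary endothelium and of blood stem cells (chr1:194938819-194961279, plus strand), was at 10.3, 13.4 and 8.61 CPM in *Prmt3* f/f tumors and at 10.0, 9.16 and 10.96 CPM in LKO tumors. Its highest and lowest values were both in *Prmt3* f/f tumors, and the log2 fold change was -0.10 (SE 0.20, edgeR adjusted p = 0.977).

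*Vwf*, which encodes von Willebrand factor of endothelial storage granules and of platelets (chr6:125546774-125686679, plus strand), varied most. It was at 6.05, 14.9 and 10.5 CPM in *Prmt3* f/f tumors and at 12.9, 8.53 and 12.2 CPM in LKO tumors. The highest tumor was 2.46 times the lowest and both were *Prmt3* f/f tumors, and the log2 fold change was 0.09 (SE 0.33, edgeR adjusted p = 0.988). Platelet genes could share in this signal. The platelet receptor genes *Gp1ba*, *Gp1bb*, *Gp5*, *Gp6* and *Gp9* were too low to be tested, and the summed level of 8 platelet and megakaryocyte genes was 4.25 to 5.72 CPM in *Prmt3* f/f and 3.26 to 4.17 CPM in LKO tumors. These sums did not overlap between the groups, but the gap was narrow, from 4.17 to 4.25 CPM. Among the tested genes of the list, *Pf4* and *Ppbp* overlapped between groups. *Itga2b* was lower in every LKO tumor, as were 6.6% of all genes tested. The part of platelets in the *Vwf* level was not tested.

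The remaining 3 genes were in neither marker set. *Kdr*, the gene of the principal VEGF receptor of endothelium (chr5:75932827-75978458, minus strand), was at 41.3, 65.2 and 65.2 CPM in *Prmt3* f/f tumors and at 65.7, 62.4 and 54.4 CPM in LKO tumors. Tumor 7 stood alone at the low end and the log2 fold change was 0.09 (SE 0.20, edgeR adjusted p = 0.984). *Pecam1*, which encodes the junctional adhesion protein CD31 (chr11:106654217-106750628, minus strand), was at 28.7, 42.6 and 40.8 CPM in *Prmt3* f/f tumors and at 36.7, 31.1 and 32.4 CPM in LKO tumors. All 3 LKO tumors were below tumors 66 and 71 and above tumor 7, and the log2 fold change was -0.16 (SE 0.18, edgeR adjusted p = 0.948). Without tumor 7, the lowest tumor for this gene, it was -0.33 (SE 0.14, unadjusted p = 0.048, edgeR adjusted p = 0.556). In that setting 1260 of the 14150 genes tested had an unadjusted p below 0.05. *Stab1*, the gene of stabilin-1, a scavenger receptor that *Stab2* is paralogous to (chr14:31139013-31168641, minus strand), was at 56.3, 86.4 and 73.6 CPM in *Prmt3* f/f tumors and at 76.5, 64.0 and 102 CPM in LKO tumors. The highest value was in LKO tumor 94, and the log2 fold change was 0.16 (SE 0.23, edgeR adjusted p = 0.962). *Stab1* is also made by macrophages, and its exons overlap those of *Nt5dc2* on the other strand, which had 55 to 174 counts per tumor beside 1220 to 2093 for *Stab1*. How strand was used in counting is not given in the sources used here.

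Exact two-sided permutation tests over the 6 tumors gave p from 0.2, for *Plvap*, to 0.9, for *Lyve1*, for the log2 CPM of the 10 genes, where 0.1 is the smallest p that 3 tumors against 3 allow. The highest tumor was 1.40 to 2.46 times the lowest, with a median of 1.57, beside a median of 1.71 over the genes tested that were above 0 in every tumor. The biological coefficient of variation of the fit was 17.4% to 30.1% for the 10 genes.

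Between genes, levels were compared per length, as FPKM (fragments scaled by transcript length and library size), averaged over the 6 tumors. *Plvap* was highest, at 27.0 ± 3.93 (SD, n = 6), above *Oit3* in every tumor with no overlap of ranges. *Oit3*, *Clec4g* and *Lyve1* followed at 13.0 ± 1.87, 12.1 ± 3.19 and 11.8 ± 3.16, and their ranges overlapped. *Stab2* was at 6.62, *Kdr* at 6.11, *Stab1* at 4.75 and *Pecam1* at 3.94, each overlapping its neighbors in that order, although *Lyve1* was above *Stab2* and *Stab1* above *Pecam1* in 6 of 6 tumors. *Cd34*, at 1.06 ± 0.155, and *Vwf*, at 0.542 ± 0.146, were lowest and overlapped neither each other nor *Pecam1*. The lengths implied by the deposited values differed from the summed exons of a public annotation. They were longer for several genes, with 3845 against 2462 bases for *Clec4g*, 16034 against 10288 for *Stab1*, 8969 against 6228 for *Pecam1* and 19829 against 16064 for *Vwf*. For *Lyve1* the implied length was shorter, 2607 against 2919. The order of genes with close levels and the size of ratios between genes therefore depend on lengths that were not given in the sources used here.

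Per tumor, the balance was taken as the mean log2 CPM of the 3 capillarized genes minus the mean log2 CPM of the 4 sinusoidal genes. It was -1.26, -0.96 and -1.56 in *Prmt3* f/f tumors 7, 66 and 71, and -1.27, -1.26 and -1.26 in LKO tumors 92, 93 and 94. The group means were -1.26 ± 0.30 and -1.26 ± 0.0044 (SD, n = 3), and the LKO values lay between the *Prmt3* f/f extremes. The closeness of the LKO values depended on including *Clec4g*. Without it the balance was -0.99, -0.96 and -1.64 in *Prmt3* f/f and -1.21, -1.35 and -1.27 in LKO tumors. The group means were then -1.20 ± 0.39 and -1.28 ± 0.068, and the groups still overlapped. The sinusoidal mean was 5.46 ± 0.19 in *Prmt3* f/f and 5.41 ± 0.15 in LKO tumors, and the capillarized mean 4.20 ± 0.31 and 4.15 ± 0.15. The balance was lowest in tumor 71 and highest in tumor 66, both of them *Prmt3* f/f tumors. Expressed as a ratio of FPKM, *Plvap* over *Stab2* was 5.65, 4.67 and 3.02 in *Prmt3* f/f and 3.56, 4.28 and 3.80 in LKO tumors, which overlapped as well.

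**Figure D3:**
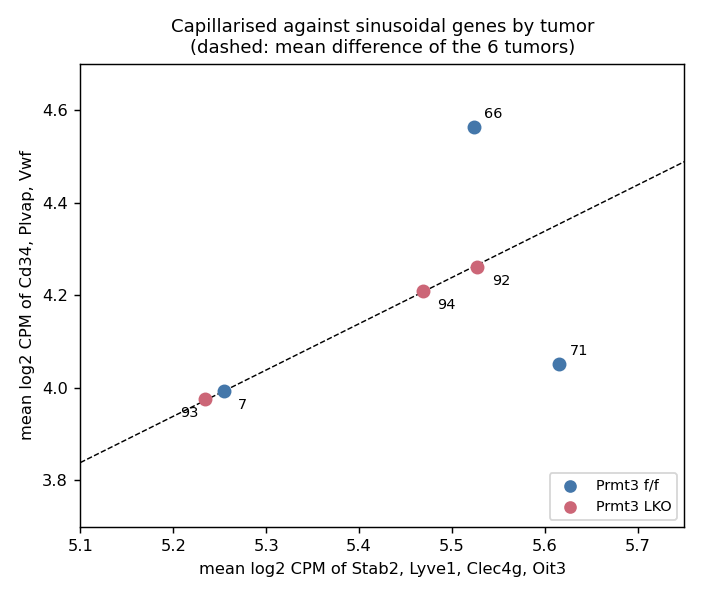
Mean log2 CPM of *Cd34*, *Plvap* and *Vwf* (vertical) against that of *Stab2*, *Lyve1*, *Clec4g* and *Oit3* (horizontal), 1 point per tumor. The dashed line is the mean difference of the 6 tumors. The 3 LKO tumors and tumor 7 sit on it, with tumor 66 above and tumor 71 below.

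Tumor 7 was the lowest of the 6 for *Stab2*, *Lyve1*, *Oit3*, *Vwf*, *Stab1*, *Pecam1* and *Kdr*, 7 of the 10 genes, while 23.6% of all genes tested were lowest there. Relative to the median of the other 5 tumors, *Vwf* was at 0.497, *Lyve1* at 0.563, *Kdr* at 0.633, *Oit3* at 0.72, *Stab1* at 0.736 and *Pecam1* at 0.783. *Cd34* was near that median at 1.03 and *Plvap* above it at 1.28. *Clec4g* over *Lyve1*, as FPKM, was 2.46 in tumor 7, 0.947 and 0.687 in tumors 66 and 71, and 1.39, 0.596 and 0.909 in the LKO tumors. Without tumor 7, 9 of the 10 log2 fold changes were below 0, *Stab1* being the exception at 0.0061, with a median of -0.16 beside -0.0092 over all genes, and the 95% intervals reached from 0.579 to 1.45. Leaving out a *Prmt3* f/f tumor that was lowest for 7 of the 10 genes raises their *Prmt3* f/f mean. The move downward of those 7 was therefore built in and is not a separate result.

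**Figure D4:**
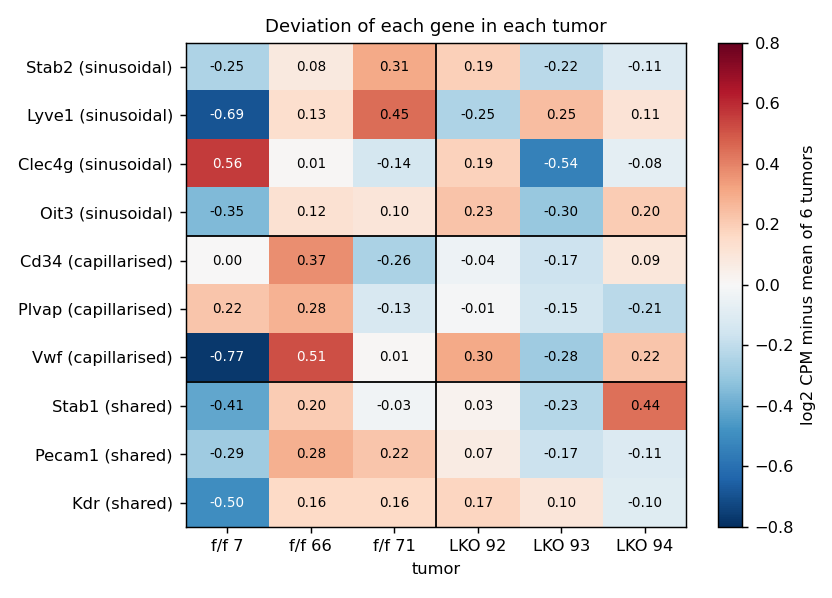
Log2 CPM of each gene in each tumor, as the difference from that gene's mean over the 6 tumors, with values printed in the cells. The column of tumor 7 is negative for most rows and positive for *Clec4g*.

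Because the amount of endothelium may differ between tumors, each gene was also set against the mean log2 CPM of 20 other pan-endothelial genes. That mean was 3.79, 4.13 and 4.10 in *Prmt3* f/f and 4.12, 3.91 and 4.11 in LKO tumors. On this scale the group differences of the 10 genes ran from -0.33, for *Clec4g*, to 0.12, for *Vwf*, and all 10 overlapped between groups. Both ends rested on tumor 7. Without it *Clec4g* was at -0.014 and *Vwf* at -0.12, and the range was -0.26, for *Pecam1*, to 0.057, for *Stab1*. Exact two-sided permutation tests gave p from 0.2, for *Pecam1*, to 1, for *Lyve1*. Relative *Clec4g* was 2.28 in tumor 7 and 1.06 to 1.58 in the other 5 tumors.

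Other genes of the endothelium were taken from lists of known markers. Of 17 other sinusoidal genes, 0 had an unadjusted p below 0.05. Of them, 15 had a log2 fold change below 0, beside 49.9% of all genes tested, with a median of -0.11. Without tumor 7, 12 were below 0. The part of other cells, such as macrophages, in the levels of this list was not tested. The lowest was *Wnt9b*, a WNT ligand of central vein endothelium, at -0.51 (SE 0.62), and the highest *Rspo3*, which encodes a WNT agonist, at 0.08 (SE 0.35). Tumor 7 was highest for 5 of the 17 and lowest for 1. *Flt4*, the gene of VEGF receptor 3, was at 150 CPM in tumor 7 and at 51.9 to 76.6 CPM in the other 5. Of 20 pan-endothelial genes, 11 were below 0 and 9 above, with a median of -0.014, and 12 were lowest in tumor 7. Without tumor 7, 14 were below 0 and the median was -0.18. *Egfl7*, which encodes a secreted protein of endothelium, was at 15.3, 16.8 and 16.5 CPM in *Prmt3* f/f and at 23.2, 20.98 and 24.8 CPM in LKO tumors (log2 fold change 0.51, SE 0.14, unadjusted p = 0.00692, edgeR adjusted p = 0.606). All 3 LKO tumors lay above all 3 *Prmt3* f/f tumors, yet the adjusted p did not pass. Of the 20 genes, 2 were higher in every LKO tumor, beside 5.56% of all genes tested. The other was *Clec14a*, at 0.39 (SE 0.19). *Ecscr* had the lowest log2 fold change of that list, at -0.45 (SE 0.26).

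Of 22 other vascular genes, 19 were tested, with 11 below 0, 8 above and a median of -0.076. *Icam1* and *Vcam1*, the genes of leukocyte adhesion molecules, had unadjusted p of 0.0276 and 0.0419 and log2 fold changes of -0.55 (SE 0.20) and -0.54 (SE 0.22), with edgeR adjusted p of 0.684 and 0.743. Other cells of the tumors may share in both levels, and their part was not tested. *Vcam1* was at 80.0, 83.2 and 90.6 CPM in *Prmt3* f/f and at 43.3, 52.9 and 78.0 CPM in LKO tumors, with no overlap. Of the 19 genes, 2 were lower in every LKO tumor, beside 6.6% of all genes tested. The other was *Emcn*, at -0.46 (SE 0.21). *Esm1*, a gene of sprouting tip cells, was highest of the list at 0.67 (SE 0.40) and *Selp*, which encodes P-selectin, lowest at -0.59 (SE 0.42). Without tumor 7 *Selp* was at -0.084, and *Gja4*, which encodes a connexin of arterial endothelium, was the lowest at -0.74. Among 11 tested VEGF and angiopoietin genes, 8 were below 0 and 0 had an unadjusted p below 0.05, with *Vegfa* highest at 0.45 (SE 0.27) and *Flt4* lowest at -0.34 (SE 0.40). Without tumor 7 *Flt4* was above 0, at 0.30, *Vegfc* was highest at 0.47 and *Nrp2* lowest at -0.33. Of 10 vascular basement membrane genes, 6 were below 0 and 0 had an unadjusted p below 0.05, from *Lamb2* at -0.32 (SE 0.27) to *Lama4* at 0.12 (SE 0.20).

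**Figure D5:**
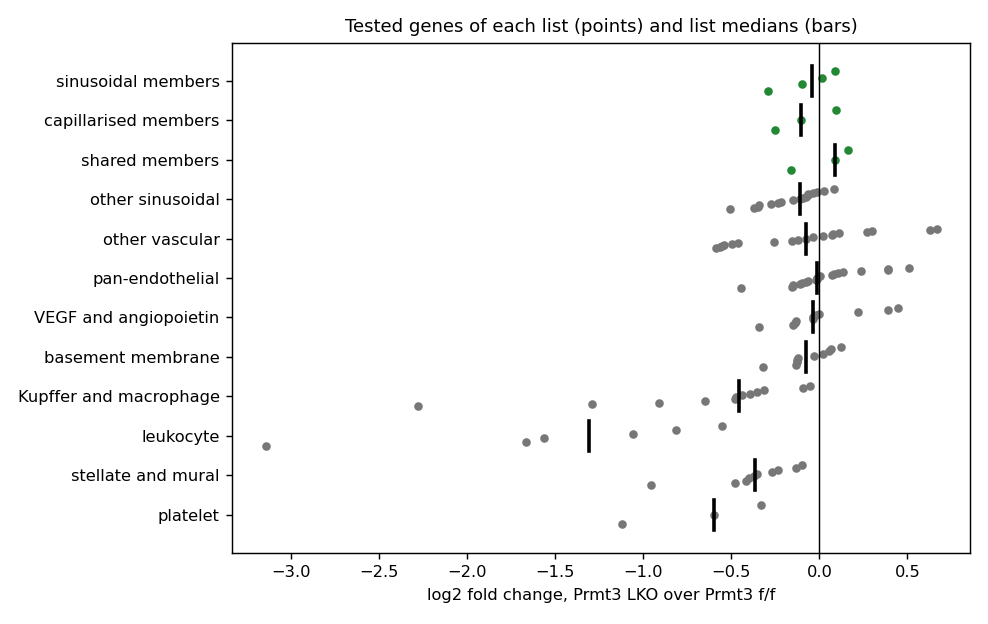
Log2 fold change of *Prmt3* LKO over *Prmt3* f/f tumors for the tested genes of each list, 1 point per gene, with the median of each list marked. The medians of the sinusoidal, vascular, pan-endothelial, VEGF and basement membrane lists lie between -0.11 and -0.014, and those of the Kupffer cell (-0.46), leukocyte (-1.31), stellate (-0.36) and platelet (-0.60) lists lie lower. The median of *Stab1*, *Pecam1* and *Kdr*, which are in neither marker set and are labeled shared, is 0.088. The lymphatic endothelial (-0.89) and hepatocyte (-0.011) lists are not drawn.

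Markers of other cells of the tumors were also measured. Of 12 Kupffer cell and macrophage genes, 12 had a log2 fold change below 0 and 5 an unadjusted p below 0.05, with a median of -0.46. The 5 were *Marco* at -2.28, *Timd4* at -1.29, *Cd68* at -0.65, *Adgre1* at -0.48 and *Csf1r* at -0.47. Nearest to 0 were *Clec4f* at -0.05 (SE 0.28) and *Cd5l* at -0.09 (SE 0.20). The summed level of the list was 715 to 853 CPM in *Prmt3* f/f and 495 to 711 CPM in LKO tumors. Of 6 leukocyte genes, all 6 were below 0 and 4 had an unadjusted p below 0.05 (*Itgam* at -3.14, *S100a8* at -1.67, *Lyz2* at -1.56 and *Ptprc* at -0.81), and the sums were 210 to 738 CPM and 148 to 193 CPM. Neither sum overlapped between the groups, all LKO tumors being lower, though the Kupffer cell sums came as close as 711 and 715 CPM. Of the single genes, 4 of 12 and 4 of 6 were lower in every LKO tumor, beside 6.6% of all genes tested. In the adjusted test 0 of these genes passed. Without tumor 7, 9 of the 12 Kupffer cell genes and all 6 leukocyte genes were still below 0. *Clec4f*, *Vsig4* and *Cd5l* were then above 0, at 0.23, 0.030 and 0.0011. *Lyve1* and *Stab1* can also come from macrophages, and the part of these cells in their levels was not tested. Lymphatic endothelium, which shares *Lyve1*, gave *Prox1* at -0.62 (SE 0.21, unadjusted p = 0.0186), *Sema3d* at -0.96 (SE 0.28, unadjusted p = 0.0102) and *Pdpn* at -1.97 (SE 0.58, unadjusted p = 0.0101), while *Ccl21a* was listed at 0 in every tumor. Their edgeR adjusted p were 0.648 for *Prox1* and 0.606 for *Sema3d* and *Pdpn*. *Pdpn* was near the floor, with 2 to 43 counts per tumor and 0.114 CPM in LKO tumor 92. *Reln*, the most abundant of the list, went the other way, at 60.9, 135 and 106 CPM in *Prmt3* f/f and at 112, 145 and 134 CPM in LKO tumors (0.37, SE 0.28). The list's summed level overlapped between groups, at 138 to 239 CPM and 187 to 196 CPM, and its median log2 fold change was -0.89. *Prox1* is also expressed in hepatocytes. Of 10 stellate, fibroblast and mural cell genes, 10 were below 0 and 0 had an unadjusted p below 0.05, with sums of 397 to 966 CPM and 421 to 690 CPM that overlapped.

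The genes whose profile over the 6 tumors was most like the mean of the 4 sinusoidal genes were *Prpsap1*, *Ehbp1*, *Sfxn1*, *Ecd* and *Zhx1*, with root-mean-square differences of centred log2 CPM of 0.0318 to 0.0458 among 12768 genes. The sinusoidal genes themselves did not share 1 profile: *Stab2* differed from their mean by 0.0918 and *Oit3* by 0.126, while *Lyve1* at 0.331 and *Clec4g* at 0.363 differed more than the median gene, at 0.289. For the 3 capillarized genes the nearest were *Xrcc1*, *Gpr182*, *Prex2*, *Ccbl1* and *B3glct*, at 0.0506 to 0.0744. *Cd34* was at 0.11, *Plvap* at 0.203 and *Vwf* at 0.281 from their mean, beside 0.326 for the median gene. A gene with the same level in every tumor would be at 0.203 from the capillarized mean and at 0.143 from the sinusoidal mean. *Plvap* and *Vwf* were thus no nearer to the capillarized mean than such a gene. The means include these genes, so their own distances are smaller by construction.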

How the data were processed

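Total RNA of 6 tumors had been sequenced as paired-end reads and, per the labels and the submitters' processing notes, base-called with bcl2fastq 2.19 and aligned to GRCm38 with HISAT2 2.0.4, with StringTie 1.3.0 among the tools named. The authors deposited 1 table with gene counts (whole numbers, not normalized) and FPKM (deposited by the authors, scaled by length and library size) in 12 columns, of which 0 were left unused. The counting tool, annotation release and strand setting are not given in the sources used here. From the deposited counts, genes were filtered with filterByExpr (minimum count 10, minimum total 15), leaving 13892 of 34745 (14468 had no count), scaled by TMM and tested with edgeR 4.0.16 (R 4.3.3) by quasi-likelihood with Benjamini-Hochberg adjustment over all of them. The test was checked on simulated data. Calls needed an adjusted p under 0.05 together with a 2-fold change or more. Log2 CPM used a prior count of 2. Intervals are 95% from the fit. FPKM served for levels and ratios between genes and as an alternative scale. Groups came from the sample labels, without covariates. Members and lists were chosen with earlier results of these data known. All 10 members are named with their values. From each pathway list, the genes with the lowest and highest log2 fold change and those under an unadjusted p of 0.05 were named. Genes of the cell type lists, *Gja4*, *Vegfc*, *Nrp2*, *Clec14a*, *Emcn*, the tumor 7 values of *Flt4* and the ratios in tumor 7 were picked after their values were seen. Alternatives were DESeq2 1.42.0, limma 3.58.1, other scaling and filters, the FPKM scale and each tumor left out. Depth limits precision to counting error plus the spread of 3 tumors per group.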

Additional observations from a re-analysis of the deposited data

How the results depend on the processing

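The direction of 7 of the 10 log2 fold changes depended on single tumors. When tumors were dropped one at a time, *Lyve1* ranged from -0.26 to 0.28, *Oit3* from -0.055 to 0.25, *Vwf* from -0.19 to 0.43, *Kdr* from -0.11 to 0.19, *Cd34* from -0.24 to 0.084, *Stab2* from -0.24 to 0.040 and *Stab1* from -0.036 to 0.31. Without *Prmt3* f/f tumor 7, which was the lowest tumor for each of them, *Lyve1*, *Oit3*, *Vwf* and *Kdr* were all below 0. *Clec4g*, *Plvap* and *Pecam1* kept their direction in every setting. In all 12 alternatives 0 of the 10 genes were called, and their adjusted p ranged from 0.556 to 1. Over all genes DESeq2 called 43 lower and 9 higher, and the edgeR exact test 35 and 5, and edgeR with no filter 2 and 0, totals of 52, 40 and 2, against 0 by the quasi-likelihood test, which had 607 lower and 305 higher at an unadjusted p under 0.05. The median of the sinusoidal genes ranged from -0.15 to 0.10, that of the capillarized genes from -0.24 to 0.084, and the group difference of the balance from -0.18 to 0.17. No paired analysis was possible because the groups share no replicate numbers. With 3 tumors per group, the intervals given show how precise each fold change was and are not a limit of detection. Across all genes, *Itgam* at -3.14 was also not called by the quasi-likelihood test, and no detectable size of change was worked out.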

Other observations

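*Esm1* and *Apln*, genes of sprouting tip cells, and *Vegfa*, the VEGF ligand gene, had their highest values in the same LKO tumor, 93. These genes were picked after their values were seen, and the difference between groups did not pass the test for any of them. *Esm1* was at 44.8 CPM in tumor 93 and at 13.5 to 25.1 CPM in the other 5 tumors. *Apln* was at 4.47 CPM there and at 0.646 to 1.83 CPM elsewhere. *Vegfa* was at 102 CPM there and at 41.7 to 72.3 CPM elsewhere. In the same tumor, 11 of the 17 other sinusoidal genes had their lowest value, beside 15.7% of all genes tested, and 10 of the 12 Kupffer cell genes did too. The hepatocyte genes *Cyp2e1* and *Tat* were at 244 and 374 CPM in tumor 93 and at 166 and 355 CPM in *Prmt3* f/f tumor 7, while the other 4 tumors had 1057 to 1330 CPM of *Cyp2e1* and 1271 to 1938 CPM of *Tat*. The other hepatocyte markers checked were mixed. *Cps1* and *Pck1* were also lowest in tumors 7 and 93. *Hnf4a* was only slightly lower there, at 667 and 622 CPM beside 683 to 760 CPM elsewhere. *Alb*, at 131282 and 130162 CPM, lay inside the range of the other 4 tumors, 108202 to 164722 CPM. *Apoa1* was highest of all in tumor 7, at 20099.5 CPM, and *Ttr* in tumor 93 was above tumor 71. The part of hepatocyte differences in the endothelial values was not tested. Among the 10 endothelial genes *Clec4g* was lowest in tumor 93, at 31.3 CPM.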
